A study of Mus musculus with 6 samples.

Results

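The 213 genes described here are the small nuclear and nucleolar RNA genes of a mouse mast cell culture dataset, chosen as every row of the expression table whose biotype was snoRNA (184 genes), snRNA (21 genes) or scaRNA (8 genes), out of 17320 genes in all. RNA sequencing was run on peritoneal cells (PC) that had spent 9 days in stem cell factor (SCF) and IL-3, conditions under which mast cells grow out of the mixed lavage. Libraries labelled Mcemp1-/- replicates 4, 5 and 6 came from C57BL/6 mice with a CRISPR-Cas9 frameshift deletion in exon 1 of Mcemp1, a transmembrane protein gene of mast cells, and the libraries labelled Mcemp1+/+ replicates 1, 2 and 3 came from mice without it. The study asked how loss of Mcemp1 changes the transcriptome of these cultures. Nothing in the labels says whether the 3 libraries of a group came from separate animals or cultures, so the p-values speak to variation among the libraries at hand, possibly technical, and not to variation among mice.

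Small nucleolar RNAs (snoRNAs) guide chemical modification of ribosomal RNA: C/D box snoRNAs direct 2'-O-methylation and H/ACA box snoRNAs direct pseudouridylation, and a few take part in cutting the ribosomal RNA precursor instead. Most mammalian snoRNAs are released from the introns of a host gene, and the mature RNA has no poly(A) tail. Small nuclear RNAs (snRNAs) form the core of the spliceosome, and small Cajal body RNAs (scaRNAs) guide the modification of those snRNAs in the Cajal body. A protocol that selects polyadenylated RNA is not designed to capture them, and the labels give the same mRNA kit for all 6 libraries.

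The sequences below are examples of members with high levels and show which boxes placed them in a class. They are GENCODE vM21 transcripts on GRCm38, printed 5' to 3'. Here and below, in an exon means inside an exon of at least 1 annotated transcript of the host, not of every transcript. The same bases can lie in an intron of its other transcripts. In the C/D box RNAs, capitals mark the C box (TGATGA or 1 letter off it, starting in the first 20 bases) and the D box (CTGA in the last 20 bases).
Gm25091, in an exon of Rpl21, chr5:146834834-146834904, plus strand: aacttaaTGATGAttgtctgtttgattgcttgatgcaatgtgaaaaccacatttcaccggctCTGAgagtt
Gm23212, in an exon of Gas5, chr1:161036682-161036741, plus strand: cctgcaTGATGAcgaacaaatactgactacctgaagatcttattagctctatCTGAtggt
Snord80, in an exon of Gas5, chr1:161037601-161037681, plus strand: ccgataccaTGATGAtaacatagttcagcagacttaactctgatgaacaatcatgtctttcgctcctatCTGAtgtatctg
Gm23344, in an intron of Rpl4, chr9:64175048-64175115, plus strand: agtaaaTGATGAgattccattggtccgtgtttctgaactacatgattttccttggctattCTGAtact
Snord33, in an exon of Rpl13a, chr7:45126864-45126947, minus strand: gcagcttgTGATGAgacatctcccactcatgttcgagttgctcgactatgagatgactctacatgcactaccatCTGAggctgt

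The H/ACA box RNAs are longer. Capitals mark the ANANNA hexamer nearest the middle and the ACA in the last 8 bases. Gm26083, a scaRNA with the same pair of boxes, is shown as 1 of the 2 members whose mean would pass 1 CPM without Mcemp1+/+ replicate 2.
Snora21, in an intron of Rpl23, chr11:97781639-97781775, minus strand: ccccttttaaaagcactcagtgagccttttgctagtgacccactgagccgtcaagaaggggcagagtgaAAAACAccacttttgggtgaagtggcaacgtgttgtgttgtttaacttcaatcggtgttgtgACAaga
Snora31, in an intron of Tpt1, chr14:75847905-75848034, plus strand: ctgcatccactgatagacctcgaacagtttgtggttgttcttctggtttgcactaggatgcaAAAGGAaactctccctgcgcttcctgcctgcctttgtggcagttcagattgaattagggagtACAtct
Gm26083, in an exon of Snhg20, chr11:117077243-117077435, plus strand: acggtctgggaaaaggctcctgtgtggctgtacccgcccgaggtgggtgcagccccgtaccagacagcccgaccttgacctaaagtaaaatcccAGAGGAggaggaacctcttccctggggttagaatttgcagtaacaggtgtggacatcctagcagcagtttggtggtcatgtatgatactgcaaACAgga

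One snRNA, U7, is shown as the shortest of the snRNA members. Capitals mark the bases from AATTT to CTAG, the site that binds its particular ring of Sm and Lsm proteins.
Rnu7, in an exon of Grcc10, chr6:124741225-124741286, minus strand: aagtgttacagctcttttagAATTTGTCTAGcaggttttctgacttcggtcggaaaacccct

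By symbol, 78 members were C/D box, 16 H/ACA box, 10 Cajal body (8 scaRNAs with Scarna9 and Scarna10, which the table calls snoRNAs), 3 spliceosomal and 1 U7, and 105 had no class in the symbol. Most of the 105 could be placed by sequence, in a step added after the values had been seen. The C and D box pair was found in 94.9% of 98 annotated C/D box genes, 0 of 42 annotated H/ACA box genes and 0.545% of 2202 annotated miRNA genes. The H and ACA pair was found in 88.1% of the 42 H/ACA box genes and 1.5% of the miRNA genes. The snRNAs were placed by at least 85% identity to a named U RNA. With these rules there were 137 C/D box RNAs, 39 H/ACA box RNAs and 10 Cajal body RNAs. There were also 9 U2 genes, 6 U5 genes, U7, U11, 4 other snRNAs and 6 other snoRNAs. No member was placed as U1 or U6. The named U RNAs did not include U4, so a U4 gene would fall among the other snRNAs.

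The values are normalized counts on a scale close to CPM (counts scaled to the library total), and the totals of the 6 libraries lay between 932999 and 989051. No value is 0: each library has a lowest value (0.0403 to 0.0669) that 86 to 718 genes share to within a relative tolerance of 1e-06, and whether it stands for no read or 1 read could not be settled. A member at that value is described as at the lowest value of the library, the ratios and fitted fold changes of such members depend on that value and are no measured folds, and the read depth is unknown. Mcemp1 itself was at 0.201, 0.0849 and 4.23 in Mcemp1-/- replicates 4, 5 and 6, against 9.80, 7.68 and 16.9 in Mcemp1+/+ replicates 1, 2 and 3, so the library labelled Mcemp1-/- replicate 6 did not match the other libraries of its label. The summed level of 10 neutrophil precursor markers was 478, 352 and 13089 in the Mcemp1-/- libraries, the last in replicate 6, against 8689 to 14404 in Mcemp1+/+ libraries. Among them Ctsg did not follow this pattern, at 436, 346 and 654 in Mcemp1-/- libraries, against 557, 437 and 424 in Mcemp1+/+ libraries. The 11 mast cell markers were all present, with sums of 24150 to 45279 in Mcemp1-/- libraries and 23071 to 23869 in Mcemp1+/+ libraries. Hdc went the other way, at 86.8, 92.8 and 62.5 in Mcemp1-/- libraries, against 146, 143 and 117 in Mcemp1+/+ libraries.

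One library, Mcemp1+/+ replicate 2, carried nearly all of the small RNA signal of the dataset. The members summed to 28.9, 26.8 and 24.8 in Mcemp1-/- replicates 4, 5 and 6, against 29.1, 35265 and 28.7 in Mcemp1+/+ replicates 1, 2 and 3. They made up 3.68% of all normalized counts in Mcemp1+/+ replicate 2 and 0.00261% to 0.00311% in the other 5 libraries. In each of those 5, 128 to 141 members were at the lowest value of the library. Their sums and shares there hold that value many times and do not measure the amount of RNA. The 2 other Mcemp1+/+ libraries lay close to the Mcemp1-/- libraries, so the difference separated 1 library and not the genotypes. In Mcemp1+/+ replicate 2, 189 members reached 1, 115 reached 10 and 63 reached 100, whereas 2 or 3 members reached 1 in each other library and 0 reached 10. Of the 213 members, 204 were highest in Mcemp1+/+ replicate 2, where 14.8% of all genes were. At least 10 times the highest of the other 5 libraries was reached by 178 members (83.6%), beside 1.77% of all genes, and for 93 of the 178 all 5 other values are the lowest of their libraries. This one library has no replicate of its own, and no test was made of it. Nothing in the labels sets its preparation apart from that of the other 5, and no source used here says whether it was made differently.

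**Figure D1:**
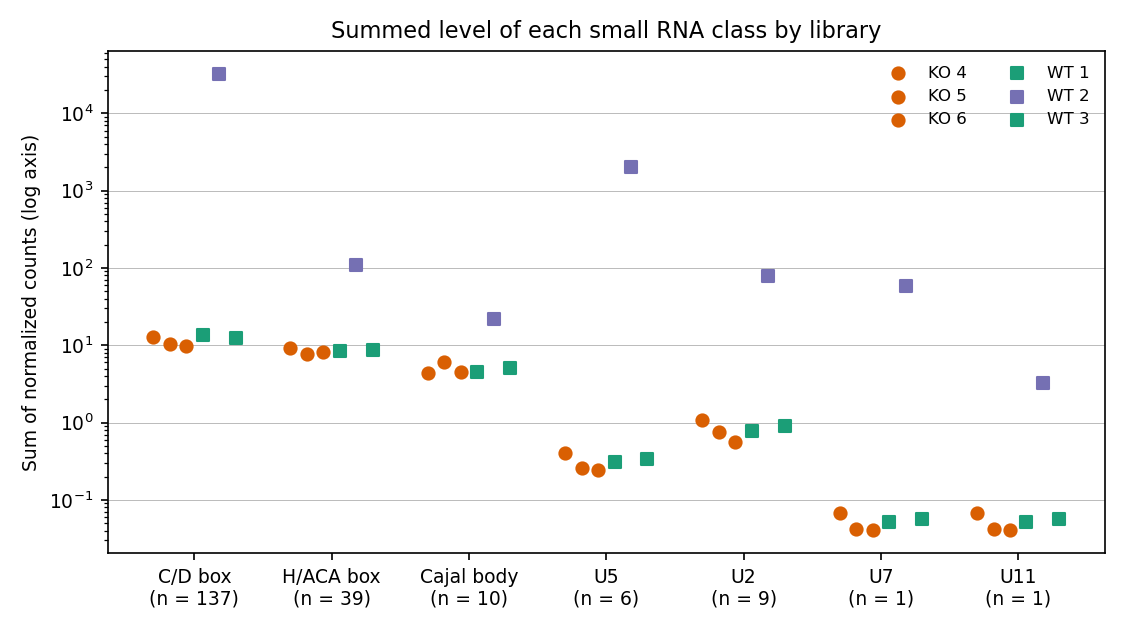
Sum of normalized counts (log axis) of each small RNA class in each library, with Mcemp1-/- (KO) replicates 4 to 6 as circles, left of Mcemp1+/+ (WT) replicates 1 to 3 as squares. WT replicate 2 lies above the other 5 libraries in every class shown, from 32719 for the C/D box RNAs to 3.22 for U11. For U5, U7 and U11 the points of the other 5 libraries hold only lowest values.

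The C/D box RNAs accounted for 92.8% of the member sum in Mcemp1+/+ replicate 2. Their summed level was 12.6, 10.3 and 9.92 in Mcemp1-/- replicates 4, 5 and 6, against 13.6, 32719 and 12.2 in Mcemp1+/+ replicates 1, 2 and 3. All 137 were highest in Mcemp1+/+ replicate 2, and 72 of them were at the lowest value in each of the other 5 libraries. H/ACA box RNAs summed to 9.19, 7.65 and 8.09 in the Mcemp1-/- libraries, against 8.39, 110 and 8.66 in the Mcemp1+/+ libraries. Of these 39, 34 were highest in Mcemp1+/+ replicate 2 and 18 passed 10 times the highest other library, so the excess was present but much smaller. Cajal body RNAs summed to 4.40, 6.04 and 4.50 in Mcemp1-/- libraries, against 4.50, 22.1 and 5.06 in Mcemp1+/+ libraries. Of these 10, 8 were highest in Mcemp1+/+ replicate 2 and 4 passed 10 times. Much of their sum in the other 5 libraries came from Gm23119 (1.47 to 1.85) and Gm26083 (1.19 to 2.47). These 2 were at 2.15 and 0.997 in Mcemp1+/+ replicate 2. The median level per 100 bases in Mcemp1+/+ replicate 2 was 79.3 for C/D box, 1.22 for H/ACA box and 1.01 for Cajal body RNAs.

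**Figure D2:**
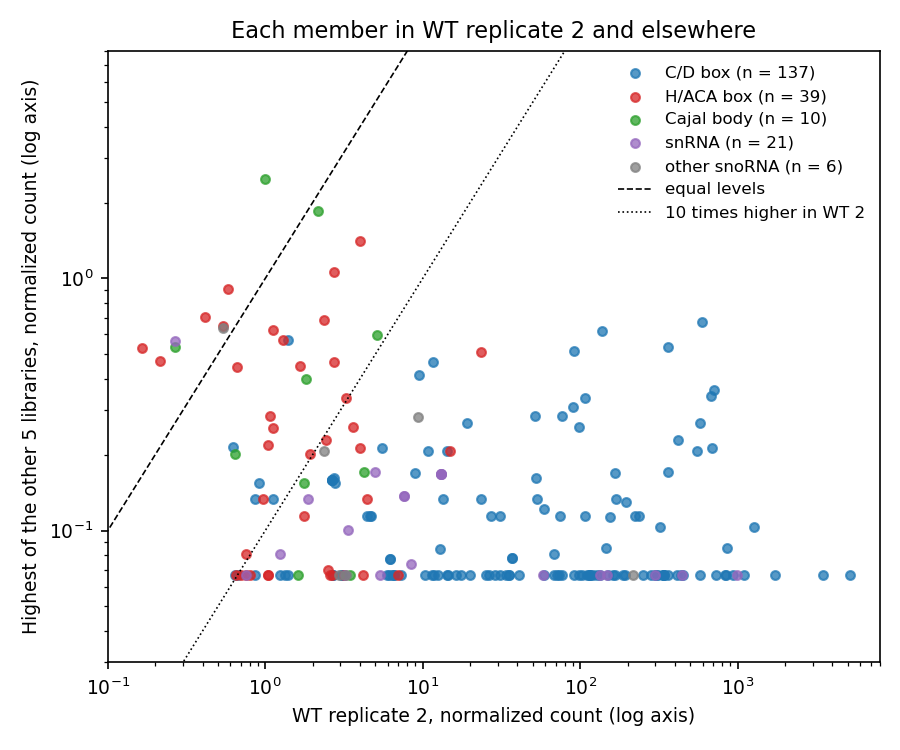
Each of the 213 members by its normalized count in WT replicate 2 (x axis, log) and its highest normalized count in the other 5 libraries (y axis, log), coloured by class, with all snRNAs in one colour. C/D box RNAs reach 5181 on the x axis while no C/D box RNA passes 0.671 on the y axis, and the 9 points on the left of the dashed line of equal levels are the members that were not highest in WT replicate 2.

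The members with the highest levels in Mcemp1+/+ replicate 2 were C/D box RNAs, several of them in ribosomal protein genes or in Gas5, a noncoding host gene with a cluster of snoRNAs. Gm25091, in the ribosomal protein gene Rpl21, was at 0.0669, 0.0425 and 0.0403 in Mcemp1-/- replicates 4, 5 and 6, against 0.0516, 5181 and 0.0570 in Mcemp1+/+ replicates 1, 2 and 3. The 5 low values are the lowest values of their libraries, so the RNA was measurable in 1 library only. Gm23212, Snord80, Snord12, Gm22193 and Snord33 had the same 5 low values, with 3491, 1739, 1093, 936 and 839 in Mcemp1+/+ replicate 2. Gm23344, in Rpl4, was at 0.0669, 0.0425 and 0.0403 in the Mcemp1-/- libraries, against 0.103, 1274 and 0.0570 in the Mcemp1+/+ libraries. Per 100 bases, Gm25091 was at 7297 and Gm23212 at 5818 in Mcemp1+/+ replicate 2, ahead of Snord80 at 2146 and Gm23344 at 1874.

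A smaller set of C/D box RNAs was above the lowest value outside Mcemp1+/+ replicate 2 as well. Snord34, one of the snoRNAs of Rpl13a, was at 0.268, 0.255 and 0.363 in Mcemp1-/- replicates 4, 5 and 6, against 0.671, 594 and 0.228 in Mcemp1+/+ replicates 1, 2 and 3. Snord32a, from the same host, was at 0.268, 0.340 and 0.403 in Mcemp1-/- libraries, against 0.516, 91.4 and 0.399 in Mcemp1+/+ libraries. Snord65 was at 0.536, 0.425 and 0.161 in Mcemp1-/- libraries, against 0.413, 363 and 0.114 in Mcemp1+/+ libraries. For Snord34, Snord32a and Snord65 the groups overlapped, whereas Snord87, Snord49a, Snord49b and Snord93 were lower in each Mcemp1-/- library than in each Mcemp1+/+ library. The groups were apart in that direction for 7.51% of the members and 13.4% of all genes. Snord87, Snord49a, Snord49b and Snord93 were named in part for it, and their Mcemp1+/+ mean reached 1 CPM only through replicate 2. Snord87, in the noncoding host Snhg6, was at 0.201, 0.127 and 0.242 in Mcemp1-/- libraries, against 0.310, 674 and 0.342 in Mcemp1+/+ libraries.

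The C/D box RNAs that act in cutting the ribosomal RNA precursor rather than in methylation include U3 and U8. U3 is encoded by Rnu3a and by Rnu3b1 to Rnu3b4, and the 4 Rnu3b genes carry identical values in each library. Rnu3a was at 0.0669, 0.0425 and 0.0403 in Mcemp1-/- libraries, against 0.0516, 4.46 and 0.114 in Mcemp1+/+ libraries. Each Rnu3b gene was at 0.0837, 0.159 and 0.0806 in Mcemp1-/- libraries, against 0.103, 2.67 and 0.0855 in Mcemp1+/+ libraries. Snord118 (U8) was at the lowest value of 5 libraries and at 113 in Mcemp1+/+ replicate 2. In all, 20 members shared their 6 values with at least 1 other member.

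The spliceosomal RNAs that could be placed, U5, U2 and U11, showed the same pattern at very different sizes. The 6 U5 genes, whose RNA holds the exons in place for joining, were each at the lowest value in 5 libraries, and in Mcemp1+/+ replicate 2 Gm25313 was at 996, Rnu5g at 443 and Gm24871 at 299.8. The lowest of the 6 in that library was Gm23287, at 5.37. U2, which pairs with the intron branch point, had a median of 4.42 per 100 bases over its 9 genes in that library, where U5 had 193.5. Rnu2-10 and 3 copies with the same sequence were each at 0.167, 0.112 and 0.0907 in Mcemp1-/- libraries, against 0.0839, 13.0 and 0.117 in Mcemp1+/+ libraries. Rnu11, the U11 RNA of the minor spliceosome, was at 3.22 in Mcemp1+/+ replicate 2, and Rnu7, which directs the 3' end formation of histone mRNAs, was at 57.8, with both at the lowest value in the other 5 libraries.

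Among the members, length and level in Mcemp1+/+ replicate 2 went in opposite directions. The 84 members of 55 to 79 bases had a median of 145 per 100 bases in that library, those of 80 to 99 bases (42) 39.3, those of 100 to 129 bases (20) 2.83, those of 130 to 159 bases (43) 1.22 and the 24 longer ones 1.37. Over the 213 members Spearman's rho of length with level was -0.60, as a description, since the members share 1 library. Class and length overlap, because C/D box RNAs are short, but the C/D box RNAs among themselves also differed. The 120 under 100 bases had a median of 114 per 100 bases and the 17 of 100 bases or more a median of 1.24, with Snord90 (410), Snord118 (113) and Gm26330 (40.6) as the long ones with high levels. The 17 include Rnu3b1 to Rnu3b4, 4 genes of the same sequence whose shared value is that median. Within the 39 H/ACA box RNAs rho was -0.022.

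**Figure D3:**
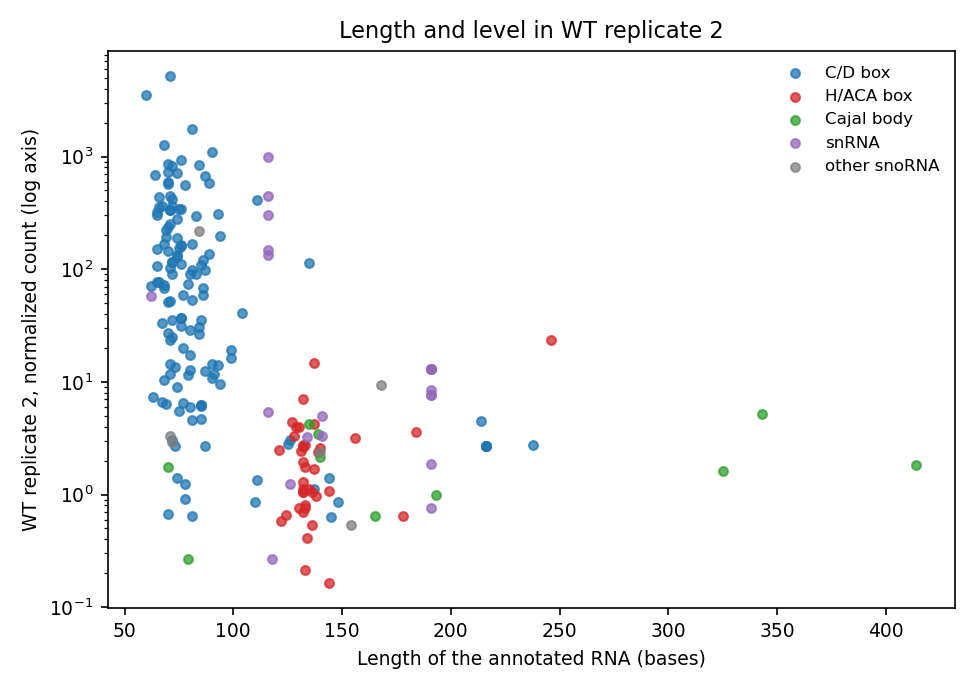
Normalized count in WT replicate 2 (log axis) of each member against the length of its annotated RNA in bases, coloured by class. Members under 100 bases spread over the whole range up to 5181, and most members from 130 bases upward lie under 10.

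Of the 213 members, 186 lay inside a host gene on the same strand, in 109 hosts, with 92 wholly in an intron and 94 touching an exon of at least 1 host transcript. Where a member overlaps a host exon, its reads and those of the host cannot be told apart, and no source used here says whether counting used the strand. Of the 103 hosts tested, 25 (24.3%) were highest in Mcemp1+/+ replicate 2, beside 1622 (12.1%) of all 13377 genes tested that are not members. Gas5 was at 47.4, 61.8 and 93.8 in Mcemp1-/- replicates 4, 5 and 6, against 128, 138 and 81.4 in Mcemp1+/+ replicates 1, 2 and 3, while its 9 snoRNAs ranged from 59.1 (Snord47) to 3491 (Gm23212) in Mcemp1+/+ replicate 2 and did not pass 0.122 in any other library. Per base, the highest of the 9 was 75.9 times the lowest, although all lie in 1 host. Snhg1 was at 34.5, 34.3 and 45.9 in Mcemp1-/- libraries, against 60.0, 64.6 and 40.2 in Mcemp1+/+ libraries, and its 8 snoRNAs ranged from 3.04 (Snord22) to 828 (Gm24452) in Mcemp1+/+ replicate 2. The host farthest above the other Mcemp1+/+ libraries in replicate 2 was 1110038B12Rik, with Snord52 in an exon, at 8.76, 10.7 and 20.8 in Mcemp1-/- libraries, against 33.1, 149 and 21.2 in Mcemp1+/+ libraries. Snord52 was at 439 in Mcemp1+/+ replicate 2. Over the 103 hosts, the median log2 difference of Mcemp1+/+ replicate 2 from the mean of Mcemp1+/+ replicates 1 and 3 was 0.044, beside -0.00059 over the same 13377 genes.

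**Figure D4:**
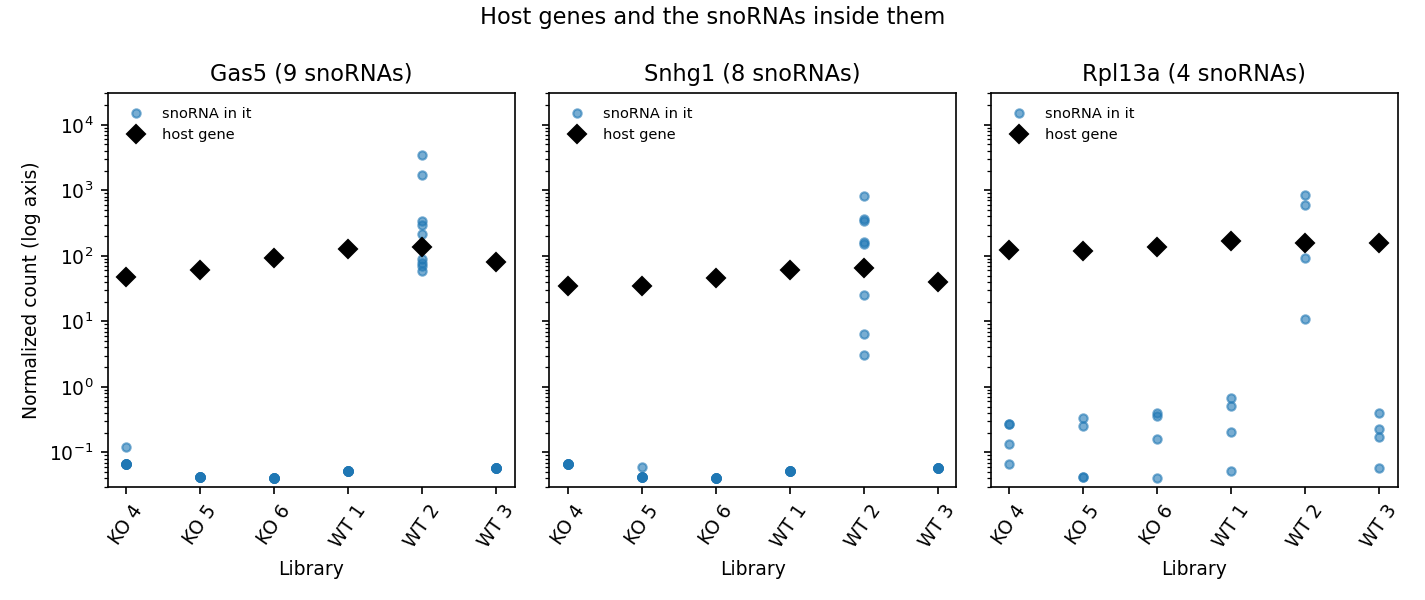
Normalized count (log axis) of 3 host genes (diamonds) and of each snoRNA inside them (circles) in the 6 libraries, KO replicates left of WT replicates and not scaled to length. The hosts stay within 34.3 to 167 in every library, while their snoRNAs are above 3 only in WT replicate 2.

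Several other RNAs without a poly(A) tail were also high in that library, whereas the ribosomal RNAs measured did not stand apart. Mitochondrial tRNAs (22 genes) summed to 106, 113 and 129 in Mcemp1-/- libraries, against 99.5, 798 and 118 in Mcemp1+/+ libraries. Rny1 and Rny3, the Y RNAs, were at 12.1 and 10.4 in Mcemp1+/+ replicate 2, and neither passed 0.134 elsewhere. Snord43, a snoRNA by symbol that the table calls a miRNA and that is therefore no member, was at 467 there and at 0.0570 to 0.258 elsewhere. Mitochondrial ribosomal RNA did not stand apart, with mt-Rnr2 at 1340, 1546 and 1369 in Mcemp1-/- libraries, against 1451, 1625 and 1462 in Mcemp1+/+ libraries. The 2 genes labelled rRNA summed to 1967, 1743 and 2165 in Mcemp1-/- libraries, against 1544, 1500 and 2006 in Mcemp1+/+ libraries, lowest in replicate 2. Transcripts of another cell type moved with the small RNAs: of 7 fibroblast and mesothelial markers 5 were in the table, and they summed to 1.27 to 2.05 in Mcemp1-/- libraries, against 1.45, 69.9 and 1.21 in Mcemp1+/+ libraries. Dcn, a matrix proteoglycan gene of fibroblasts, was at 51.6 in Mcemp1+/+ replicate 2 and did not pass 0.134 elsewhere, while the mesothelial marker Msln was at 0.538 there and at 0.415 to 0.831 elsewhere. Lrat and Colec10 were at 14.8 and 16.8 in Mcemp1+/+ replicate 2 and did not pass 0.112 elsewhere. The part of such cells in the small RNA levels was not tested.

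Between genotypes, no member passed the test. Limma called 8 genes lower and 2 higher in Mcemp1-/- libraries of 13513 tested, 0.074% of them, at an adjusted p under 0.05. It called 0 of the 136 members tested, and 0 reached an unadjusted p under 0.05, beside 3430 (25.4%) of all genes tested. Of those 136, only Gm23119 and Gm26083 would have passed the filter of a mean of 1 CPM without Mcemp1+/+ replicate 2. The others passed through that library alone, and its value largely set both their fold change and its error. The test could therefore not decide on genotype for them. The median log2 fold change of the 136 was -2.41, beside -0.0094 over all genes tested, and without Mcemp1+/+ replicate 2 it was -0.019 over the 2 members left, so the median was set by that library. With every row kept and that library left out, the median over all 213 members was -0.012. Limma called 0 of them, beside 0.0173% of all genes, and 5 reached an unadjusted p under 0.05. With that library left out and the filter kept, 1815 (13.6%) of 13330 genes tested reached it. In the table as a whole, all 3 Mcemp1-/- libraries were below all 3 Mcemp1+/+ libraries for 13.4% of genes and above them for 13.4%, and for 16 (7.51%) and 2 (0.939%) of the 213 members. A member highest in Mcemp1+/+ replicate 2 cannot be above in all Mcemp1-/- libraries. With that library left out, 16 members (7.51%) were below and 6 (2.82%) above, beside 17.1% and 17.1% of all genes. The lowest value was 0.0669 in Mcemp1-/- replicate 4, above 0.0516 and 0.0570 in Mcemp1+/+ replicates 1 and 3, so the 95 members at it in all libraries but Mcemp1+/+ replicate 2 cannot separate the groups.

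The 2 members at or near 1 in every library were Cajal body RNAs, and they did not separate the genotypes. Gm23119, an intergenic scaRNA, was at 1.47, 1.78 and 1.85 in Mcemp1-/- replicates 4, 5 and 6, against 1.55, 2.15 and 1.65 in Mcemp1+/+ replicates 1, 2 and 3. It averaged 1.70 ± 0.203 in Mcemp1-/- libraries and 1.78 ± 0.321 in Mcemp1+/+ libraries (SD, n = 3 each), with a log2 fold change of -0.046 (SE 0.20, limma adjusted p = 0.883). Gm26083, in an exon of Snhg20, was at 1.46, 2.47 and 1.19 in Mcemp1-/- libraries, against 1.50, 0.997 and 2.15 in Mcemp1+/+ libraries, with a log2 fold change of 0.10 (SE 0.33, limma adjusted p = 0.841). Its level was lowest in Mcemp1+/+ replicate 2, so the library with the most C/D box RNA was not high for it. Its host Snhg20 was at 5.30 to 7.56 in Mcemp1-/- libraries, against 5.87 to 6.44 in Mcemp1+/+ libraries. Because Gm26083 lies in an exon of Snhg20, its reads cannot be told apart from those of the host.

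Among the H/ACA box RNAs, several were present at low levels in all 6 libraries. Snora31, in Tpt1, was at 1.41, 0.934 and 0.766 in Mcemp1-/- replicates 4, 5 and 6, against 0.516, 3.97 and 0.456 in Mcemp1+/+ replicates 1, 2 and 3. All 3 Mcemp1-/- libraries were above Mcemp1+/+ replicates 1 and 3 and below replicate 2, so the direction turned on 1 library: the log2 fold change was -0.11 (SE 0.64, limma adjusted p = 0.919) with all libraries and 0.63 (SE 0.23, limma adjusted p = 0.382) without Mcemp1+/+ replicate 2 and the filter. Gm25291, in an intron of Sec24a, was at 0.486, 0.529 and 0.350 in Mcemp1-/- libraries, against 0.155, 0.166 and 0.171 in Mcemp1+/+ libraries. The groups did not overlap and Mcemp1+/+ replicate 2 lay among its own group, but the gene was under the filter, and without the filter its log2 fold change of 0.53 (SE 0.15) had a limma adjusted p of 0.171. Gm24451, in the snoRNP protein gene Nop56, was at 0.487, 0.419 and 0.537 in Mcemp1-/- libraries, against 1.06, 2.75 and 0.616 in Mcemp1+/+ libraries, with a log2 fold change of -0.88 (SE 0.42, limma adjusted p = 0.235). Snora41, in Eef1b2, was at 0.536, 0.467 and 0.484 in Mcemp1-/- libraries, against 0.516, 1.13 and 0.627 in Mcemp1+/+ libraries, and the groups overlapped.

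**Figure D5:**
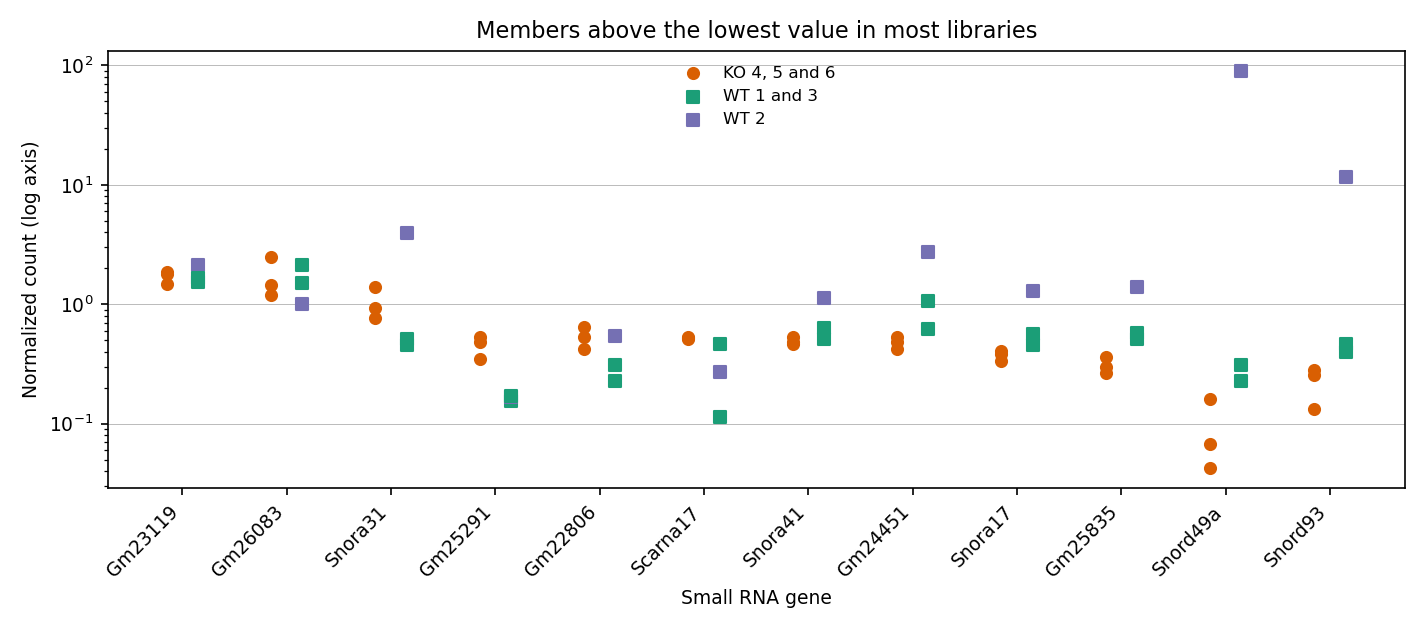
Normalized count (log axis) of 12 members that were above the lowest value in most libraries, chosen after their values were seen, with KO replicates as circles left of WT replicates as squares and WT replicate 2 in its own colour. Gm25291 has the KO libraries at 0.350 to 0.529 above the WT libraries at 0.155 to 0.171, and Snord49a and Snord93 have WT replicate 2 far above all other libraries.

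The proteins that build and process these RNAs were measured in all libraries, and none of the 8 lists had a called member with all 6 libraries. Of 13 genes for C/D box particles and their assembly, 0 passed, and 8 reached an unadjusted p under 0.05, all lower, where 3430 (25.4%) of all 13513 genes tested reached it in either direction. Without Mcemp1+/+ replicate 2, 4 of the 13 reached it, beside 1815 (13.6%) of 13330 genes. Nop58, a core protein of these particles, was at 153, 156 and 177 in Mcemp1-/- libraries, against 206, 197 and 156 in Mcemp1+/+ libraries. Of 7 genes for H/ACA box particles, 0 passed, and all 7 reached an unadjusted p under 0.05, with a median log2 fold change of -0.40, and 3 of the 7 did so without Mcemp1+/+ replicate 2. Dkc1, the pseudouridine synthase, was at 83.1, 82.7 and 107 in Mcemp1-/- replicates 4, 5 and 6, against 152, 149 and 116 in Mcemp1+/+ replicates 1, 2 and 3, with a log2 fold change of -0.61 (SE 0.15, limma adjusted p = 0.151). The groups did not overlap, and the library labelled Mcemp1-/- replicate 6 was nearest to Mcemp1+/+. Nolc1, a nucleolar and Cajal body chaperone of both kinds of particle, was at 115, 105 and 153 in Mcemp1-/- libraries, against 223, 204 and 151 in Mcemp1+/+ libraries.

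The other lists covered snRNA particles and the making and trimming of small RNAs. The Sm core (7 tested), the LSm ring of U6 together with Larp7, Mepce and Sart3 (10) and the snRNP particle proteins (24) had 0 called. So did the snRNA transcription and 3' end genes (28), the Cajal body and SMN complex (16) and the 3' trimming genes (18). The median log2 fold changes of these lists lay between -0.21 and -0.050. The Sm protein gene Snrpb was at 126, 126 and 103 in Mcemp1-/- libraries, against 130, 177 and 111 in Mcemp1+/+ libraries. Prpf8, the central spliceosome protein that U5 carries, was at 617, 556 and 614 in Mcemp1-/- libraries, against 673, 655 and 627 in Mcemp1+/+ libraries. In bulk cultures, fewer cells of a type and less RNA per cell cannot be told apart.

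The noncoding snoRNA host genes had a median log2 fold change of -0.59 over 17 tested, with 0 called. Of them, 11 reached an unadjusted limma p under 0.05, all lower, beside 25.4% of all genes tested in either direction. Without Mcemp1+/+ replicate 2, 7 reached it, beside 13.6% of all genes tested. Zfas1, host of Snord12, was at 4.89, 4.97 and 12.2 in Mcemp1-/- replicates 4, 5 and 6, against 18.7, 21.0 and 14.8 in Mcemp1+/+ replicates 1, 2 and 3. Without the library labelled Mcemp1-/- replicate 6, limma called 12 of these 17 lower and 0 higher, and all 7 H/ACA box particle genes and 7 of the 13 C/D box particle genes lower, where 41.8% of all genes tested were called. The hosts of members, 103 tested, had 45 lower and 8 higher. Marker sums of other myeloid cells set the same libraries apart: the 8 macrophage markers summed to 5.56, 3.69 and 133 in Mcemp1-/- replicates 4, 5 and 6, against 147, 174 and 184 in Mcemp1+/+ replicates 1, 2 and 3, as the neutrophil precursor sums above did. The 7 eosinophil markers summed to 5.02, 5.86 and 8.55 in Mcemp1-/- libraries, against 50.6, 83.9 and 136 in Mcemp1+/+ libraries, and this sum did not set replicate 6 apart. Single markers differed: Epx and Prg2 were at 0.121 and 0.0806 in replicate 6, near replicates 4 and 5. Siglecf (0.201, 0.0849 and 3.02) and Ear2 (0.0669, 0.0425 and 1.20) were higher in replicate 6 than in Mcemp1-/- replicates 4 and 5. The part of these cells in the host and particle gene levels was not tested.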

How the data were processed

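Per the labels, 3 Mcemp1-/- and 3 Mcemp1+/+ RNA libraries were made with the KAPA mRNA HyperPrep kit, and the study's methods give sequencing on an Illumina NextSeq. The authors deposited 1 table of normalized counts per gene on a scale near CPM, and the submitters' processing notes name Partek and mm10. No source used here names the aligner, annotation, normalization or filter. Whole reads could not be recovered, so no count model was run. All value columns of the table were mapped to samples (0 unused). The column headers carry suffixes whose meaning is not given in the sources used here, 1 shared by Mcemp1-/- replicate 5 and Mcemp1+/+ replicate 2 and 1 by Mcemp1-/- replicates 4 and 6, and no batch was defined from them.

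Members and lists were chosen with earlier results of these data known. The 13513 genes whose mean reached 1 CPM entered limma (version 3.58.1, R version 4.3.3; lmFit, eBayes with a trend) on log2(value + 0.5 CPM at the mean total), so fold changes of low genes are understated. P-values were adjusted by Benjamini-Hochberg over all genes tested. On simulated data the fit was checked before use. Positions of 210 members equalled GENCODE vM21, which gave sequences and hosts.

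Named members were, in each class by symbol, up to 6 with the highest mean and 4 with the highest median, every called member, and up to 5 in each direction with groups apart whose higher group reached 1 CPM. Named others were up to 10 genes highest in Mcemp1+/+ replicate 2 against the other 5 libraries, the called genes or the 2 highest of each list, and hosts. Genes outside this rule (such as Gm25291, Snord90, Snord118 and the cluster members) were chosen after their values were seen. Alternatives varied the pseudocount, filter, scaling, moderation and libraries. Of 24 replication-dependent histone genes listed, 0 were tested. The sequences of some members are not reported here.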

Additional observations from a re-analysis of the deposited data

How the results depend on the processing

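Of the members, 0 were called under every alternative run. The count of called genes was 10 with all libraries and 0 to 5640 when 1 library was left out, 5640 without the library labelled Mcemp1-/- replicate 6 and 0 without either Mcemp1-/- replicate 4 or 5. It was 3 without Mcemp1+/+ replicate 2 and the filter, and 4779 without both Mcemp1+/+ replicate 2 and the library labelled Mcemp1-/- replicate 6 (both chosen after seeing the data). The median log2 fold change of tested members was -2.41, and -3.59 to -0.019 when 1 library was left out. It was 0.029 with a median of at least 1 CPM, -0.012 without Mcemp1+/+ replicate 2 and the filter, and 0.042 without both libraries, settings that remove Mcemp1+/+ replicate 2 or the members it alone carries. The C/D box sum in Mcemp1+/+ replicate 2 was 32719, against 33680 when scaled to the total of non-member genes and 32471 with median-of-ratios scaling.

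Fitted log2 fold changes that turned sign were near 0 or rested on Mcemp1+/+ replicate 2. Gm23119 (-0.046) was at -0.12 to 0.066 when 1 library was left out, 0.066 without Mcemp1+/+ replicate 2 and the filter, 0.032 without Mcemp1-/- replicate 4 and 0.016 without both libraries. Gm26083 (0.10) was at -0.13 to 0.31 when 1 library was left out, -0.11 without Mcemp1+/+ replicate 2, with or without the filter, and -0.13 without Mcemp1-/- replicate 5. Snora31 (-0.11) was at -0.50 to 0.023 when 1 library was left out, the highest without the library labelled Mcemp1-/- replicate 6. Without Mcemp1+/+ replicate 2 and the filter, Snora31 was at 0.63, Gm22009 at 0.27, Snord65 at 0.20, Rnu2-10 at 0.055 and Gm22980, at the lowest value in 4 of those 5 libraries, at 0.025. No paired analysis was possible because the groups share no replicate number.

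The read depth is unknown, so no counting interval is given. Members at the lowest value of a library cannot be told from absent, and 20 members share their 6 values with another.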

Other observations

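Gm22574, a 60-base gene on chromosome 13 that the table gives no small RNA biotype (TEC), was at 442 in Mcemp1+/+ replicate 2 and at the lowest value in each of the other 5 libraries. Mir1839, which the table calls both a miRNA and a scaRNA and which the exact biotype rule leaves out, was at 0.0669, 0.0425 and 0.0403 in Mcemp1-/- libraries, against 0.0516, 2.30 and 0.104 in Mcemp1+/+ libraries. The 38 genes labelled miRNA summed to 119, 105 and 132 in Mcemp1-/- libraries, against 114, 599 and 115 in Mcemp1+/+ libraries, with 467 of the 599 from Snord43.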
